A study of Homo sapiens with 12 samples.

Results

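The guanylate-binding protein genes GBP1, GBP2, GBP3, GBP4 and GBP5 were followed across 12 RNA sequencing libraries of HT1080 cells. The 5 genes were chosen by family name, with earlier results of these data known. GBP6 and GBP7, of the same family, are given further on. All 5 genes were listed in both deposited tables, which hold 16101 and 15991 genes and share 15459. HT1080 is an established human fibrosarcoma line, labelled here as wild type, and each group was 3 libraries of polyA RNA. PMA and ConA were each compared with controls of their own table. PMA, a phorbol ester that activates protein kinase C, was given at 40 nM for 24 h, and its controls carry the numbers 1 to 3. ConA, a jack bean lectin that binds mannose and glucose residues of glycoproteins, was given at 40 µg/mL for 24 h, and its controls carry the numbers 4 to 6. All groups were grown for 3 days in biotin-depleted medium with 10% serum and were then moved to biotin-depleted medium with 1% serum. The labels call the untreated arms only controls and name no vehicle. No source used here says that the 3 libraries of a group were separate cultures, so the p-values measure the spread between libraries, which may be technical.

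Guanylate-binding proteins are large GTPases of the dynamin superfamily that act inside the cell that makes them. They are classical targets of interferon, above all of interferon-gamma, and their transcription runs through IRF1 and the interferon-stimulated response element (ISRE). On bacteria or vacuoles in the cytosol they assemble into coats, GBP1 first, and the coat recruits caspase-4, which cleaves gasdermin D. GBP1 carries a farnesyl group and GBP2 and GBP5 a geranylgeranyl group that anchor them in membranes, while GBP3 and GBP4 have no such signal. GBP2 and GBP5 also restrain the protease furin, and GBP5 promotes assembly of the NLRP3 inflammasome.

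Promoter windows were given for 3 of the 5 members, GBP1, GBP3 and GBP4, and these 3 are shown for the response elements in them. The promoters of GBP2 and GBP5 were not analysed here. The sequences come from RefSeq on GRCh38.p14. Each runs from 250 bases before the annotated start to 50 bases after it, 5′ to 3′ on the gene's own strand, which is the minus strand of chromosome 1. Capitals mark matches to the ISRE core GAAANNGAAA on either strand, and in GBP3 also a match to the AP-1 site TGAGTCA. AP-1 is the transcription factor family classically switched on by phorbol esters. GBP1 spans chr1:89065159-89065458, GBP3 chr1:89022817-89023116 and GBP4 chr1:89198893-89199192.
GBP1: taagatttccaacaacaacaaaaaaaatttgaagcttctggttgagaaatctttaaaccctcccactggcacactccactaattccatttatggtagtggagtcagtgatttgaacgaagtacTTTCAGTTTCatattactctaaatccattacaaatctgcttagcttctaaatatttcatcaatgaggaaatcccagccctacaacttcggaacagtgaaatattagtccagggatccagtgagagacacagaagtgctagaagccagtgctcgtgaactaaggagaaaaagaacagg
GBP3: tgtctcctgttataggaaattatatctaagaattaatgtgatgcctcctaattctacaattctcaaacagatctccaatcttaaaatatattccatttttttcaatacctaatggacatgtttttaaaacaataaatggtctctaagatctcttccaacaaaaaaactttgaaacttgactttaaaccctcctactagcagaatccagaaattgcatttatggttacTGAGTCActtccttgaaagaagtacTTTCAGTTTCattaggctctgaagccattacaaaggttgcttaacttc
GBP4: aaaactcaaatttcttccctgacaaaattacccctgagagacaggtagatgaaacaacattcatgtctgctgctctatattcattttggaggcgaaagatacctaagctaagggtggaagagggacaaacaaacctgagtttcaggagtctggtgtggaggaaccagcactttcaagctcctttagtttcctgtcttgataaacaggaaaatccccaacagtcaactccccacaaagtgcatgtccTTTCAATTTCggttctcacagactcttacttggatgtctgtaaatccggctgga

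These 3 windows held the ISRE core, always on the opposite strand, and the windows of GBP6 and GBP7, from the same cluster, did not. Of 27305 RefSeq promoter windows of the same length, searched on both strands, 3.65% held it. Counting from 1 at the annotated start, the match lay at bases -127 to -118 in GBP1, at 3 to 12 in GBP3 and across the start, at -4 to 6, in GBP4. The element reads TTTCAGTTTC in GBP1 and GBP3 and TTTCAATTTC in GBP4. In GBP1 and GBP3 it sits inside the longest run that both windows share, 19 bases: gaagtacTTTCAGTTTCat. The AP-1 site was found in GBP3 alone of the 3, at -23 to -17, and in 4.92% of all windows. The GAS element TTCNNNGAA, another interferon-gamma response site, was also found in GBP3 alone, at -15 to -7, and in 7.88% of all windows. A kappaB site lay at -45 to -36 of GBP4 on the opposite strand, and such a site was in 5.72% of all windows. None of these matches overlapped another. A match describes the letters of the window and was not tested for binding.

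Values are normalized counts, that is, reads per gene divided by a scaling factor for each library, and they are not divided by transcript length. The 12 libraries held an estimated 33616572 to 45567772 reads assigned to genes. The 2 tables were scaled apart, so levels are compared within a table, and a level set across tables is named as such. A gene was called when its log2 fold change was at least 1 in size and its limma p, adjusted by Benjamini-Hochberg over all genes tested, was at most 0.0001. In bulk RNA, a change in the share of cells that express a gene and a change in the amount per cell cannot be told apart. Cell type markers were read first, and being listed does not by itself identify the line. All 10 mesenchymal markers fixed for HT1080 were listed in both tables, although NT5E, which encodes CD73, was low at 4.00 to 74.6 normalized counts. Among the leukocyte markers, PTPRC and those of T and NK cells split the tables. The pan-leukocyte marker PTPRC and the T and NK cell markers CD3D, CD3E, CD2 and NKG7 were all listed in the PMA table, where the 5 summed to between 580 and 668 in the controls and between 714 and 1161 with PMA. In the ConA table CD3D alone was listed, at 21.6 to 31.0. Over the whole list of 13 leukocyte markers, 8 were listed in the PMA table, with sums of 932 to 1016 in controls and 1062 to 1537 with PMA. Of the 13, 4 were listed in the ConA table, with sums of 455 to 494 in controls and 394 to 462 with ConA. Set across the tables, the 3 monocyte markers listed did not share 1 direction. Their means in the PMA and ConA controls were 303 and 357 for CSF1R, 10.8 and 93.3 for LYZ, and 35.1 and 3.69 for ITGAM. LYZ averaged 2.77 with PMA, and ITGAM averaged 29.4 with ConA. The B cell markers MS4A1 and CD79A and the monocyte markers CD14 and FCN1 were not listed in either table. No erythroid marker was listed, and the 2 endothelial markers listed, PECAM1 and VWF, summed to between 44.3 and 145 normalized counts.

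With ConA all 5 members rose, and for each of them the 3 ConA libraries lay above the 3 ConA controls. The members fell into 3 sizes of change. GBP4 and GBP5, low in the controls, rose more than 100-fold, GBP1 about 10-fold, and GBP2 and GBP3 between 3 and 4-fold. Of 15139 genes tested, 8.71% were called with ConA and 5.83% were called higher, whereas 5 of 5 members were called higher. The groups did not overlap for 69.3% of all genes tested and for 5 of 5 members.

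GBP4 stood at 10.4, 18.0 and 9.02 normalized counts in the 3 ConA controls and at 1976, 2484 and 2464 in the 3 ConA libraries. Its controls rest on 9 to 18 estimated reads and its ConA libraries on 1971 to 2741. The means were 12.5 ± 4.84 (SD, n = 3) and 2308 ± 288 (SD, n = 3), a 185-fold ratio. On the log2(value + 1) scale, which understates the change of a gene this low, the change was 7.47 ± 0.19 (SE; limma adjusted p = 3.31e-13). GBP5, the member that promotes the NLRP3 inflammasome, was at 12.5, 14.0 and 17.0 in the controls and at 1895, 2391 and 2405 with ConA. The ratio of its means was 154, and its log2 change was 7.17 ± 0.14 (SE; limma adjusted p = 8.28e-15). In both genes the first ConA library was the lowest of the 3, and it was still over 100 times the highest control value.

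GBP1, the member that starts the coat on bacteria, had a clear level before treatment. It was at 1049, 1014 and 1013 in the ConA controls and at 9145, 10800.1 and 10679.8 with ConA. The means were 1025 ± 20.9 (SD, n = 3) and 10208 ± 923 (SD, n = 3). That was a 9.96-fold ratio and a log2 change of 3.31 ± 0.07 (SE; limma adjusted p = 1.33e-14). As with GBP4 and GBP5, the first ConA library was the lowest of its group.

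GBP2 and GBP3 had the highest levels per kilobase of the 5 in untreated cells, given further on, and the smallest changes with ConA. GBP2 went from 1223, 1033 and 1096 to 4064, 3984 and 4127, a 3.63-fold ratio and a log2 change of 1.86 ± 0.07 (SE; limma adjusted p = 1.01e-11). GBP3 went from 2255, 2108 and 2082 to 6832, 7824 and 7387, a 3.42-fold ratio and a log2 change of 1.77 ± 0.06 (SE; limma adjusted p = 7.53e-12). The control libraries of each gene lay within a narrow range and the ConA libraries far above it. The 95% confidence intervals of the 2 log2 changes overlapped, running from 1.72 to 2.00 for GBP2 and from 1.64 to 1.90 for GBP3.

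**Figure D1:**
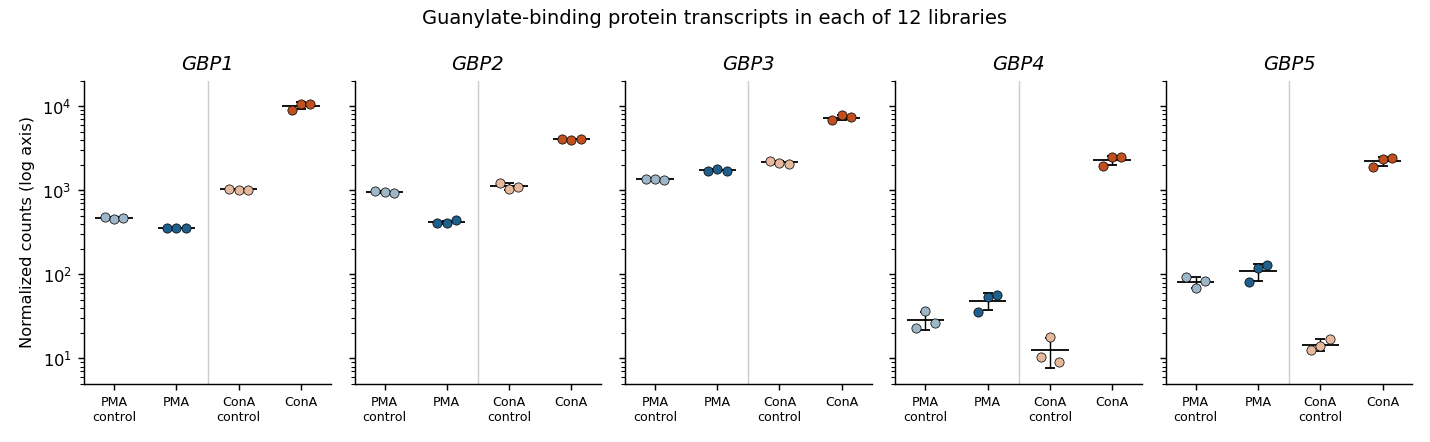
Normalized counts on a log axis (y) in each of the 12 libraries for the 5 members, by group (x); points are libraries, horizontal lines the group mean and error bars the SD of 3 libraries, and the grey line parts the 2 separately scaled tables. All 5 genes stood higher in the ConA libraries than in their controls, whereas with PMA only GBP2 passed both thresholds, from a mean of 958 to 419.

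With PMA the family did not move together. GBP2 fell, and it was the 1 member of 5 called. GBP1 lay below its controls and GBP3 above them by less than the fold required, and GBP4 and GBP5 overlapped their controls. Of 15153 genes tested, 8.65% were called with PMA and 4.61% were called lower. The groups did not overlap for 67.9% of all genes tested and for 3 of the 5 members, 1 higher and 2 lower with PMA.

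GBP2 was at 976, 957 and 941 in the PMA controls and at 412, 405 and 439 with PMA. The PMA libraries all lay far below the controls. The means of 958 ± 17.9 and 419 ± 18.2 (SD, n = 3 each) gave a level 2.29-fold lower with PMA, and the log2 change was -1.19 ± 0.06 (SE; limma adjusted p = 1.16e-08). GBP1 moved in the same direction by less. It was at 487, 462 and 470 in the controls and at 361, 356 and 359 with PMA, so that the PMA libraries differed from each other by under 5 normalized counts. The mean was 1.32-fold lower with PMA and the log2 change was -0.40 ± 0.06 (SE; limma adjusted p = 0.00024), below the fold required and past neither threshold.

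GBP3 was the member whose PMA libraries all lay above the controls. Its levels were 1382, 1348 and 1345 in the controls and 1716, 1813 and 1705 with PMA, a ratio of 1.28. The log2 change of 0.36 ± 0.05 (SE; limma adjusted p = 3.25e-05) passed the p threshold in the main fit and not the fold. It missed the p threshold under quantile normalization (limma adjusted p = 0.000273) and with no variance trend (0.000952). It also missed with any single library left out except PMA control 3 (limma adjusted p at most 0.000372). Among the 3 promoter windows printed above, the one of GBP3 carries the AP-1 site. One window with a match tests nothing, and the 2 facts are given side by side as a description.

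GBP4 and GBP5 were low and variable in the PMA experiment. GBP4 was at 23.1, 36.7 and 26.2 in the controls and at 36.0, 53.2 and 56.3 with PMA, so that the highest control stood above the lowest PMA library. Its log2 change was 0.74 with a 95% confidence interval of 0.19 to 1.29 (limma adjusted p = 0.022). GBP5 was at 92.2, 68.0 and 83.1 in the controls and at 80.1, 118 and 128 with PMA, with 1 PMA library inside the control range. Its log2 change was 0.40 with an interval of -0.01 to 0.82 (limma adjusted p = 0.0844), which includes no change.

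The same 3 PMA libraries differed in the leukocyte markers. Relative to the mean of the PMA controls, PTPRC was at 0.93, 1.29 and 1.82 in PMA libraries 1, 2 and 3. GBP4 was at 1.26, 1.86 and 1.97 in these libraries and GBP5 at 0.99, 1.45 and 1.58. Both genes and all 5 markers were thus lowest in library 1 and highest in library 3. GBP1 stayed at 0.76, 0.75 and 0.76 and GBP2 at 0.43, 0.42 and 0.46, with no such order. Without PMA library 3, the log2 change of GBP4 was 0.62 (limma adjusted p = 0.0789) and that of GBP5 was 0.27 (limma adjusted p = 0.274), while that of GBP2 was -1.23. The change of GBP4 was as low without PMA control 1, at 0.60 (limma adjusted p = 0.083), and was 0.66 without PMA library 2 (limma adjusted p = 0.0771). Without PMA library 1, GBP5 was at 0.61 (limma adjusted p = 0.00919). By limma none of the 7 leukocyte markers tested was called with PMA, against 8.65% of all genes tested, so for 7 genes no call says little. The log2 change of PTPRC was 0.38 (limma adjusted p = 0.101). All PMA libraries lay above the controls for CD3E (ratio of means 1.74) and NKG7 (1.47), whereas PTPRC, CD3D and CD2 overlapped theirs. The groups did not overlap for 67.9% of all genes tested. An unadjusted p under 0.05 was found for 2 of the 7 and for 10113 of all 15153 genes tested. The part of these markers in the 2 genes' values was not tested.

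**Figure D2:**
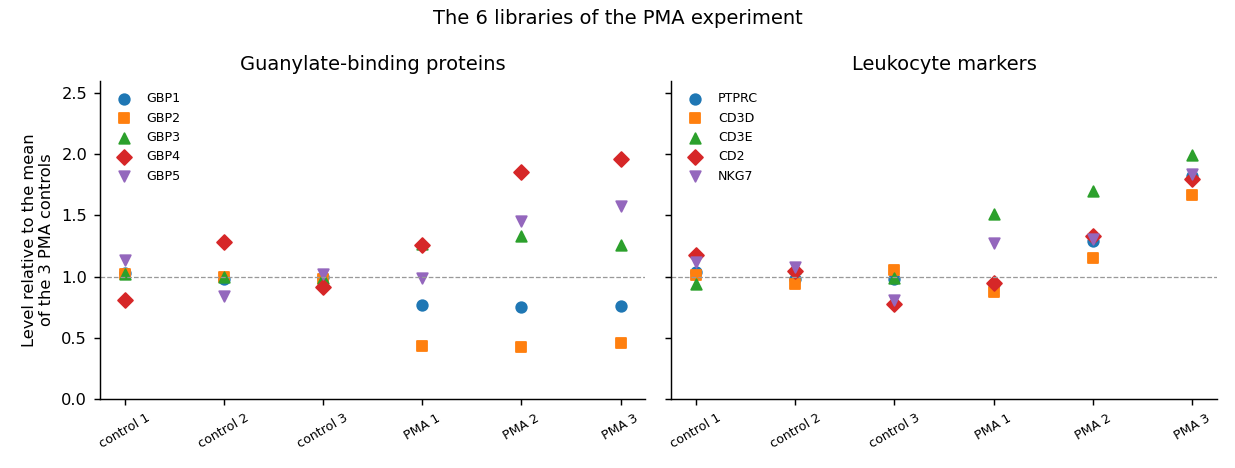
Level of each gene relative to the mean of the 3 PMA controls (y) in the 6 libraries of the PMA experiment (x), for the 5 members on the left and 5 leukocyte markers on the right; each point is 1 library. GBP4 and GBP5 reached 1.97 and 1.58 in PMA library 3, the library in which PTPRC reached 1.82, whereas GBP1 and GBP2 were level across the PMA libraries.

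The 2 treatments were then compared directly, as the PMA change minus the ConA change in 1 fit of all 12 libraries. All 5 members were called, each with a lower change under PMA. Of 15030 genes tested, 10.6% were called for this difference and 6.89% had the lower change with PMA. The difference was largest for GBP5, at -6.77 ± 0.25 (SE; limma adjusted p = 1.83e-13), and for GBP4, at -6.73 ± 0.33 (SE; limma adjusted p = 1.26e-11). GBP1 followed at -3.71 ± 0.09 (SE; limma adjusted p = 3.60e-16) and GBP2 at -3.06 ± 0.09 (SE; limma adjusted p = 5.20e-15). GBP3 had the smallest difference, -1.41 ± 0.08 (SE; limma adjusted p = 4.47e-11). GBP1 and GBP2 had changes of opposite sign under the 2 treatments. The treatments differ in agent, controls and table, and the 2 experiments were scaled apart, so each term of the difference is a contrast within its own table.

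**Figure D3:**
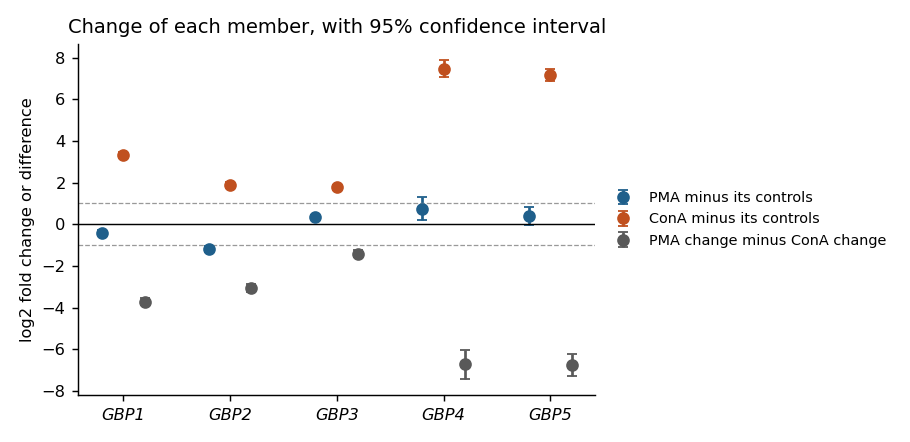
Log2 fold change under PMA and under ConA, and the PMA change minus the ConA change (y), for each member (x); points are limma estimates and bars their 95% confidence intervals, some smaller than the point, and dashed lines mark the fold required for a call. All 5 ConA changes lay above 1, GBP2 alone lay below -1 with PMA, and all 5 differences lay below -1.

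Levels of different members were compared after division by transcript length, in normalized counts per kilobase. Lengths are of GENCODE v29 protein-coding transcripts of at least 2000 bases, 1 for each gene except GBP5, which has models of 2011 and 4699 bases. In the ConA controls the order was GBP3 at 700 ± 30.5, GBP2 at 503 ± 43.8, GBP1 at 338 ± 6.89, GBP5 at 7.22 ± 1.15 and GBP4 at 2.04 ± 0.79 per kilobase (SD, n = 3 each). With ConA the first 3 changed places, with GBP1 at 3364 ± 304, GBP3 at 2396 ± 162 and GBP2 at 1828 ± 32.1 per kilobase. GBP5 at 1109 ± 145 and GBP4 at 377 ± 47.0 stayed below them. The libraries of neighbouring genes in these 2 orders did not overlap when the shorter GBP5 model was used, and with the longer one GBP5 kept its place but overlapped GBP4 in both groups. As a share of the 5 members' summed level per kilobase, GBP1 went from 21.8% ± 0.64 to 37.0% ± 0.77 (SD, n = 3 each) and GBP5 from 0.47% ± 0.09 to 12.2% ± 0.78, all with the shorter GBP5 model. With the longer model the share of GBP5 went from 0.20% to 5.61%. Again with the shorter model, GBP3 went from 45.2% ± 0.66 to 26.4% ± 0.65 and GBP2 from 32.4% ± 1.27 to 20.2% ± 1.58.

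The PMA table held the same order with and without PMA. In its controls GBP3 stood at 443 ± 6.73 and GBP2 at 432 ± 8.07 per kilobase (SD, n = 3 each), and their libraries overlapped. They were followed by GBP1 at 156 ± 4.11, GBP5 at 40.3 ± 6.09 and GBP4 at 4.67 ± 1.16 per kilobase. With PMA, GBP3 and GBP2 moved apart to 569 ± 19.3 and 189 ± 8.20 per kilobase. With the shorter GBP5 model, GBP3 then made up 60.7% ± 1.60 of the summed level per kilobase against 41.2% ± 0.21 in the controls. GBP2 made up 20.1% ± 0.98 against 40.1% ± 0.38 (SD, n = 3 each). The 2 sets of controls were not alike. GBP5 averaged 81.1 normalized counts in the PMA controls and 14.5 in the ConA controls, and GBP1 averaged 473 and 1025. These levels come from tables scaled apart, and the 2 sets also differ in the leukocyte markers given above.

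Further guanylate-binding proteins and related GTPases were read from the same fits. GBP6, from the same cluster, was at 5.21, 4.00 and 6.01 in the ConA controls and at 173, 180 and 171 with ConA, and rose (log2 change 4.87 ± 0.23 SE; limma adjusted p = 2.81e-10). It was also called higher with PMA, from 4.61, 2.68 and 2.71 to 20.9, 26.6 and 33.5. That log2 change was 2.70 ± 0.38 (SE; limma adjusted p = 8.82e-05), it rests on 3 to 28 estimated reads a library, and its PMA libraries followed the order of PTPRC. The pseudogene GBP1P1 was listed in the ConA table alone and went from 6.25, 4.00 and 7.01 to 146, 183 and 198. It is a copy of GBP1, and the reads of the copies may be hard to part, so its values are uncertain. GBP7, also listed in the ConA table alone, was at 0 in the 3 controls and at 12.0, 10.5 and 16.2 with ConA, at least 4.23-fold higher against a floor of 3 reads per library. With a mean under 10 it was not tested.

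The dynamin-like antiviral GTPases MX1 and MX2 went up with ConA and down with PMA. MX1 had log2 changes of 4.51 with ConA and -1.25 with PMA, and MX2 of 5.00 and -2.63, and all 4 were called. IRGQ, an immunity-related GTPase, was called higher with PMA alone, at 1.29 against 0.33 with ConA. IRGM had changes of 0.05 with PMA and -0.73 with ConA and was called with neither. The pseudogene GVINP1 was at 13.8 to 15.2 in the PMA controls and at 19.2 to 24.4 with PMA, and with ConA it went from 0, 0 and 1.00 to 10.0, 20.9 and 21.6. The atlastins ATL1, ATL2 and ATL3, GTPases of the endoplasmic reticulum related in sequence to this family, had log2 changes between -0.26 and 0.56, and none was called by limma with either treatment. At an unadjusted p under 0.05, 1 of the 3 passed with PMA and 2 with ConA. Among all genes tested, 10113 of 15153 passed with PMA and 10329 of 15139 with ConA. Over the 9 related GTPases tested with each treatment, 2 were called higher and 2 lower with PMA (median 0.12), and 4 higher and none lower with ConA (median 0.56). GVINP1 was tested with PMA alone and GBP1P1 with ConA alone. Over all genes tested, 611 of 15153 were called higher and 699 lower with PMA, and 882 of 15139 higher and 436 lower with ConA. The median over all genes was 0.00 with PMA and -0.00 with ConA.

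The genes that flank the cluster were read to see how far along the chromosome the calls with ConA reached. RefSeq orders the genes on chromosome 1 as PKN2, GTF2B, KYAT3, RBMXL1, GBP3, GBP1, GBP2, GBP7, GBP4, GBP5, GBP6, GBP1P1, LRRC8B, LRRC8C, LRRC8D and ZNF326. Of the 8 flanking genes, none was called with ConA by limma, against 8.71% of all genes tested. Among 8 genes no call is near that share, so it marks no edge of the response. An unadjusted p under 0.05 was found for 6 of the 8 and for 10329 of all 15139 genes tested. The log2 changes of the 8 ran from -0.07 for KYAT3 to 0.62 for GTF2B, with a median of 0.32. PKN2 was at 0.44, RBMXL1 at 0.42, LRRC8B at 0.61, LRRC8C at 0.13, LRRC8D at 0.23 and ZNF326 at 0.16. With PMA 1 of the 8 was called, against 8.65% of all genes tested. LRRC8C, a subunit of the volume-regulated anion channel, rose from 898, 913 and 950 to 2252, 2267 and 2210 (log2 change 1.28 ± 0.04 SE; limma adjusted p = 6.61e-10). The other PMA changes were 0.28 for PKN2, 0.34 for GTF2B, 0.51 for KYAT3, -0.00 for RBMXL1, 0.11 for LRRC8B, 0.06 for LRRC8D and -0.12 for ZNF326. Of the 8 flanking promoters none held the ISRE core, which was in 3.65% of all windows. RBMXL1 overlaps KYAT3, and their reads may be hard to part.

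**Figure D4:**
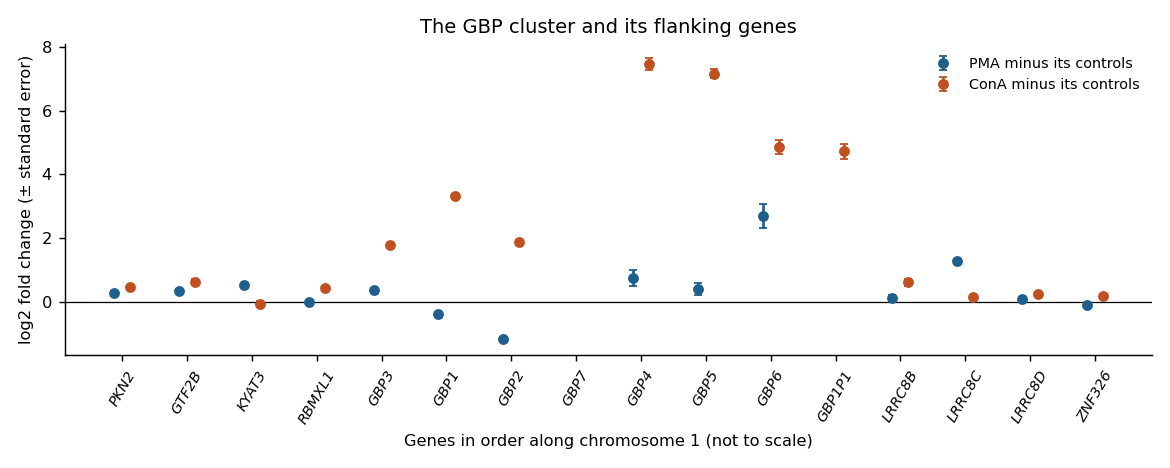
Log2 fold change ± standard error (y) of the cluster and its flanking genes in their order along chromosome 1 (x, not to scale), with PMA and with ConA; GBP7 was not tested and GBP1P1 was not listed in the PMA table. With ConA the tested GBP genes lay between 1.77 and 7.47 and the flanking genes between -0.07 and 0.62.

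The genes that act before this family in interferon signalling were read as ligands, receptors, kinases, transcription factors and inhibitors. Interferon ligand transcripts were scarce. IFNB1 was listed in the ConA table alone, at 0, 1.00 and 2.00 in the controls and 8.01, 11.5 and 2.70 with ConA, and was below the mean of 10 needed for a test. IFNG, the main inducer of the family, was listed in the PMA table alone. It was at 0.92, 2.68 and 2.71 in the controls and 5.80, 8.56 and 14.4 with PMA, again below that mean, and in the order of PTPRC across the PMA libraries. The type III interferon IFNL1 rose with ConA, from 0, 3.00 and 2.00 to 36.0, 39.7 and 40.4, and was not listed in the PMA table. With PMA the called ligands were IL1B at 3.39, TNF at 1.85 and IL1A at 1.85 on the log2 scale. TNF was also called with ConA, at 2.15, as was IFNL1. IFNE, a further type I interferon, was listed in both tables and called with neither, with log2 changes of 0.52 with PMA and -1.36 with ConA (limma adjusted p = 0.00974).

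The receptor chain IFNGR1 was called with neither treatment, with log2 changes of 0.23 with ConA and -0.15 with PMA. Its partner IFNGR2 had 0.83 with ConA and was called higher with PMA, at 1.10. JAK2, the kinase bound to IFNGR2, was at 0.81 and -0.08 and called with neither. Among the transcription factors, STAT2 had 1.98 with ConA and -0.24 with PMA, IRF1 1.22 and -0.45, and IRF9 0.82 and -0.39, of which STAT2 and IRF1 were called with ConA. Of the inhibitors, USP18 was called both ways, at 4.86 with ConA and -1.09 with PMA, and SOCS1 was at 0.70 and -0.58 and called with neither. In all, 10 of 27 signalling genes tested were called higher with ConA and none lower (median 0.80), and with PMA 5 of 26 were called higher and 1 lower (median 0.26). Over all genes tested, 882 of 15139 were called higher and 436 lower with ConA, and 611 of 15153 higher and 699 lower with PMA.

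Members were set beside 2 lists of interferon response genes. As background, 882 of all 15139 genes tested were called higher and 436 lower with ConA. With PMA 611 of 15153 were called higher and 699 lower. Of 24 antiviral effectors, all 24 were called higher with ConA (median log2 change 4.56), led by RSAD2 at 7.38, IFI44L at 6.79 and OASL at 5.87. With PMA 10 of them were called lower and none higher (median -0.93), the lowest being IFI44L at -3.02, IFIT1 at -2.70 and MX2 at -2.63. The interferon-gamma list holds 25 genes set down by name, and which signal moved each of them was not tested. With ConA 24 of the 25 were tested, and 21 were called higher and none lower (median 2.70). They were led by CXCL10 at 10.06, CXCL11 at 9.25 and IDO1 at 7.54. With PMA 3 of 19 tested were called higher and 1 lower (median 0.05), the leading ones being the adhesion molecule ICAM1 at 4.33, the class II regulator CIITA at -1.55 and the ubiquitin-like UBD at 1.55. The median of the 5 members was 3.31 with ConA and 0.36 with PMA. GBP1 and GBP2 thus had PMA changes of the sign of most antiviral effectors, and GBP3 had the opposite sign. GBP4 and GBP5 overlapped their controls with PMA, and the confidence interval of GBP5 included no change, so they are not sorted by sign. The ISRE core was in 14 of the 19 antiviral promoters with a window and in 9 of the 18 of the interferon-gamma list.

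**Figure D5:**
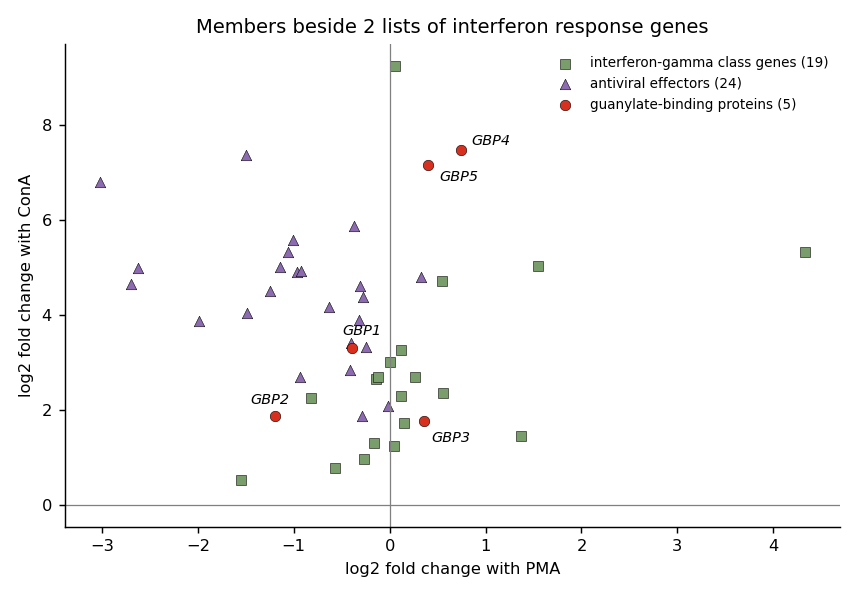
Log2 fold change with PMA (x) against that with ConA (y) for the 5 members, 24 antiviral effectors and 19 genes of the interferon-gamma list tested in both tables; each point is 1 gene. GBP4 and GBP5 lay near the top, at 7.47 and 7.17 with ConA, and GBP2 was the member farthest to the left, at -1.19 with PMA.

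Genes that work with guanylate-binding proteins in defence of the cytosol changed in part. Of 17 tested, 7 were called higher with ConA and none lower (median 0.82). All 4 apolipoprotein L genes were among them, with APOL3, a detergent-like protein that acts on bacteria coated by GBP1, at 3.30 and APOL1 at 3.28. The DNA sensor AIM2 was at 2.29. With PMA, NLRP3 was called higher at 2.49 and CASP4 at 1.11, whereas APOL3 was called lower at -1.07 (2 higher and 1 lower of 17, median -0.10). Among all genes tested, 882 of 15139 were called higher and 436 lower with ConA, and 611 of 15153 higher and 699 lower with PMA. The 5 genes of prenylation, which supply the farnesyl and geranylgeranyl anchors of GBP1, GBP2 and GBP5, were called with neither treatment. Their log2 changes ran from -0.19 to 0.16 with ConA and from -0.61 to 0.15 with PMA. An unadjusted limma p under 0.05 was found for 1 of the 5 with ConA and 3 with PMA. Such a p was found for 10329 of 15139 genes tested with ConA and 10113 of 15153 with PMA. The kinase PIM1 and the protease FURIN were called with neither.

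Likeness between profiles was measured as the root mean square distance of log2 values, each taken relative to the controls of its table, over 12 libraries. GBP4 and GBP5, neighbours on the chromosome, were the closest pair of members at 0.40, and among 14661 genes each was the nearest gene to the other. GBP2 and GBP3 were 0.78 apart and GBP1 and GBP2 0.83, whereas GBP2 and GBP4 were the farthest apart at 2.98. Nearest to the mean of the members were PLEKHA4 at 0.17, OAS3 at 0.18, CMPK2 at 0.23, IL18BP at 0.24 and IFI27 at 0.28. That mean averages members far apart, and none of these genes was among the top-ranked neighbours of any single member. Nearest to GBP1 were DDX58, the RNA sensor RIG-I, at 0.05, DDX60 at 0.10, PLSCR1 at 0.11, SAMD9L at 0.11 and C1S at 0.12. The 12 points of a profile share 2 tables and 4 groups, so these distances are a description.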

How the data were processed

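Poly(A) RNA of 12 HT1080 libraries was sequenced, and the authors deposited 2 tables of normalized counts, a signal of estimated reads divided by a factor for each library. The submitters' processing notes name Partek, STAR, Bowtie2 and DESeq2 with hg19 and mm10, without roles or versions. Because 81.8% to 84.2% of values between 5 and 60, and not nearly all, came out whole within 0.05 of a read, reads are estimates and no count test was run. From the deposited signal, log2(value + 1) was fitted with limma 3.58.1 (R 4.3.3, variance trend) over all genes with a mean of at least 10, each treatment against its own controls, with Benjamini-Hochberg adjustment over all genes tested. Calls needed both a log2 change of 1 or more in size and an adjusted p no higher than 0.0001. An exact permutation test of 3 against 3 libraries cannot go below p = 0.1 and was not used. The fit was tested on simulated data with the same spread setting for every gene. For each treatment the changed genes lay above the level of GBP4 and GBP5 in the ConA controls, so calls from so low a level were not tested. Whether shared replicate numbers pair the libraries of the PMA experiment could not be decided, and the main fit did not pair them. Coordinates are of promoter windows on GRCh38.p14 only, because the tables' build is another. The text names the 5 members, the 3 largest called genes of each list and, whatever their values, related GTPases, flanking genes and a set of signalling genes, some items being not reported here. The members and lists were chosen with earlier results of these data known. Alternatives were other pseudocounts, filters and scalings, no variance trend, a looser p, 1 joint fit, a replicate block and each library left out.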

Additional observations from a re-analysis of the deposited data

Results flagged for a closer look

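Each of the 5 members changed differently in the PMA and ConA experiments when the difference itself was tested, in 1 limma fit of all 12 libraries with 4 group means. Each treatment had its own controls and its own scaling, so treatment and experiment cannot be told apart here. The PMA change minus the ConA change, on the log2 scale, was -3.71 for GBP1, -3.06 for GBP2, -1.41 for GBP3, -6.73 for GBP4 and -6.77 for GBP5. The largest adjusted p of the 5 was 4.47e-11, against 10.6% of all genes called for this difference.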

How the results depend on the processing

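The counts of called members, 1 with PMA, 5 with ConA and 5 for the difference, were the same under every alternative run, and no member's change turned direction or gained or lost its call. Single criteria were crossed with PMA: GBP4 reached a log2 change of 1.04 under quantile normalization (adjusted p = 0.00346), the adjusted p of GBP3 rose above 0.0001 there and in others, to at most 0.000952 with no variance trend, and that of GBP1 fell to 2.16e-05 in the joint fit. GBP4 was not tested with PMA at a mean of at least 50. Without the variance trend, the genes called over the whole table were 867 with PMA against 1310 and 662 with ConA against 1318; the cause was not tested. With each library left out in turn, the log2 change with PMA ran from -1.23 to -1.17 for GBP2, from -0.41 to -0.38 for GBP1, from 0.33 to 0.38 for GBP3, from 0.60 to 0.94 for GBP4 (limma adjusted p 0.00855 to 0.083) and from 0.27 to 0.61 for GBP5 (0.00919 to 0.274). The changes with ConA ran from 3.27 to 3.39 for GBP1, 1.81 to 1.93 for GBP2, 1.73 to 1.82 for GBP3, 7.28 to 7.75 for GBP4 and 7.08 to 7.28 for GBP5. Under the other settings GBP4 with ConA ran from 6.70 to 7.58 and GBP5 from 6.51 to 7.26, the low genes being the ones a pseudocount can move.

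Deviations from the group means of same-numbered PMA controls and PMA libraries correlated at -0.06, 0.10 and 0.10. Control 1 correlated best with PMA library 2 (0.11). Deviations from a mean of 3 libraries are tied to each other, so these values cannot decide whether the numbers pair the libraries. With the replicate block 1264 genes were called with PMA against 1310, and 1 member, GBP2, was called. The ConA experiment shares no replicate numbers, and no block was possible there. Depth limits GBP4 and GBP5 in the ConA controls, which rest on 9 to 18 and 12 to 17 estimated reads a library.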
